A study of Homo sapiens with 12 samples.

Results

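The MHC class II genes and their master regulator were examined in 3 mantle cell lymphoma cell lines, Mino, Rec-1 and SP-49. The 10 members were chosen by name, with earlier results of these data known. They are the antigen-presenting chains HLA-DRA, HLA-DPA1, HLA-DPB1 and HLA-DQA1, the peptide-loading factors HLA-DMA, HLA-DMB, HLA-DOA and HLA-DOB, the invariant chain CD74 and the transactivator CIITA. All 10 were among the 19775 genes measured, and 26 of the 54675 probe sets on the array named one of them. Cells of each line were cultured for 24 h either with the gamma-secretase inhibitor compound E at 1 µM (GSI) or with 0.1% DMSO (Mock), and 2 arrays were hybridised per line and treatment, 12 in all. Mino was grown in RPMI with 15% FBS, whereas Rec-1 and SP-49 were grown with 10% FBS, so that serum and line cannot be told apart in comparisons with Mino. All are established lines of malignant B cells, and the labels do not say whether the 2 arrays of a group came from separate cultures. P-values therefore measure the spread between arrays, which may be technical.

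MHC class II molecules are heterodimers of an alpha and a beta chain that present peptides from endosomes to CD4 T cells, and B cells carry them constitutively. The invariant chain occupies the groove of newly made dimers until endosomal proteases degrade it, HLA-DM exchanges the remaining fragment for peptide, and HLA-DO, made mainly in B cells, restrains HLA-DM. Transcription is driven by CIITA, a coactivator that does not bind DNA itself but docks on the RFX, CREB and NF-Y factors assembled on the X and Y boxes of these promoters. Gamma-secretase releases the active intracellular part of Notch receptors, and its inhibitors block Notch signalling.

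The promoters are shown first because CIITA acts through factors on the X and Y boxes of class II promoters. RefSeq promoter windows of 300 bases (250 before to 50 after a transcription start, GRCh38.p14) were held for 8 members, HLA-DPA1 with 2 windows. The sequences below cover bases 150 to 11 before the start, 5′ to 3′ on the gene's strand. Capitals mark matches on either strand to AGNNACNGA, an X-box-like motif, and to ATTGG, the core of the Y box (CCAAT when read on the other strand). Both motifs were written after the windows had been looked at. In the HLA-DMB window the last capitals are a reverse-strand Y match that runs into a reverse-strand X-like match.
HLA-DQA1, chr6:32637256-32637395, plus strand: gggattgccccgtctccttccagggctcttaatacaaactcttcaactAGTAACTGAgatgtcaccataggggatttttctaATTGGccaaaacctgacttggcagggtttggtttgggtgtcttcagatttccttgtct
HLA-DPA1, chr6:33073660-33073799, minus strand: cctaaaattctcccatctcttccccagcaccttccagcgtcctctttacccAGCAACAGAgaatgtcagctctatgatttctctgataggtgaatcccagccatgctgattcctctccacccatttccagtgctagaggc
HLA-DMA, chr6:32953108-32953247, minus strand: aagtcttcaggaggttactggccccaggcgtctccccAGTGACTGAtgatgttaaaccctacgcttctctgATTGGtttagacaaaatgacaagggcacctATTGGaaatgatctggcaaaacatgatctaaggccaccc
HLA-DMB, chr6:32941039-32941178, minus strand: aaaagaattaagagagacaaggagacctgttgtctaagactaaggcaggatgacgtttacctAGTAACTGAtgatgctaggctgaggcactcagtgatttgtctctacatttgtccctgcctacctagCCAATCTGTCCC
HLA-DOA, chr6:33009602-33009741, minus strand: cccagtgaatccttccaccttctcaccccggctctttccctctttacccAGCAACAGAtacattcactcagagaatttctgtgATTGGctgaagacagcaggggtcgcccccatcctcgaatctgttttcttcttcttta
CD74, chr5:150412921-150413060, minus strand: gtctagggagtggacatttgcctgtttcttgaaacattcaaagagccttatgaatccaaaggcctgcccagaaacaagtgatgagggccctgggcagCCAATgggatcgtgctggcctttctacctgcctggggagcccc

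The X-box-like motif was found in 5 of the 9 member windows, those of HLA-DQA1, HLA-DMA, HLA-DMB and HLA-DOA and the printed one of HLA-DPA1, and in 15.3% of all 35116 promoter windows. The Y-box core was found in 7 of the 9 and in 34.6% of all windows. An X-like match followed by a Y-box core 20 to 60 bases further on the same strand was found in 3 member windows, HLA-DQA1, HLA-DMA and HLA-DOA, and in 0.524% of all windows. The windows of CD74, HLA-DOB and HLA-DPB1 held a Y-box core and no X-like match. Because the motifs were written after these windows were seen, the shares do not test whether members hold more matches. A match is a description of letters and no measure of binding.

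The deposited values are on a log2 scale, where a difference of 1 is a doubling. They ran from 0.578 to 12.782 over all arrays, with array medians between 1.963 and 2.061. The file gives no detection call, so the array median served as a floor: where a gene lay under it in 1 group, the fold is given as a lower bound, the brighter group's mean against the dim arrays' medians. Values of different probe sets are not comparable in level, because probes differ in affinity. The B-cell markers measured lay above the array median on every array, 7 of 7, with list means between 6.90 and 7.94. CCND1, the cyclin of mantle cell lymphoma, averaged 8.52 in Mino, 10.1 in Rec-1 and 10.4 in SP-49 on the Mock arrays, while CD5 averaged 4.37, 2.40 and 2.73, the latter 2 near the median. SOX11, a further marker of this lymphoma, averaged 7.42 in Mino, 4.90 in Rec-1 and 8.56 in SP-49. FCER2, usually low in it, averaged 2.05, 2.66 and 3.39 in the same order. The 9 myeloid and dendritic-cell markers averaged 1.46 to 1.71 on each array, and the 7 T-cell and NK-cell markers 1.81 to 2.67. Among the T-cell markers, CD3D read 4.81 and 4.79 on the Rec-1 Mock arrays and averaged 2.36 and 2.22 on those of Mino and SP-49.

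In untreated cells HLA-DRA, HLA-DPA1, HLA-DPB1 and HLA-DQA1 were high in Mino, at the array floor in Rec-1, and split in SP-49, where DR and DP chains were high and HLA-DQA1 depended on the probe set. Of the 10 members, 9 were lower in Mock-treated Rec-1 than in Mino, every one except CIITA, where 13.3% of all genes tested were called lower. Between Rec-1 and SP-49, 7 of the 10 were lower in Rec-1, against 15.8% of all genes. Between SP-49 and Mino, 4 of the 10 were lower in SP-49 and none was higher, against 11.8% of all genes called lower. HLA-DMB (0.51) and HLA-DOB (0.56) were called higher in SP-49 with only the arrays compared (adjusted p = 0.0229 and 0.0126) and without either Rec-1 Mock array (adjusted p = 0.012 and 0.0073), and HLA-DRA was called lower (-0.49, adjusted p = 0.0064) with probe sets averaged per gene. The median difference over the 10 members was -2.92 for Rec-1 minus Mino, -1.72 for Rec-1 minus SP-49 and -0.31 for SP-49 minus Mino, beside 0.01, 0.04 and -0.03 over all genes. Calls were at an adjusted p under 0.05 (limma on all 12 arrays, Benjamini-Hochberg over the 19775 genes). Fewer cells carrying a transcript and less of it per cell cannot be told apart in such bulk samples.

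**Figure D1:**
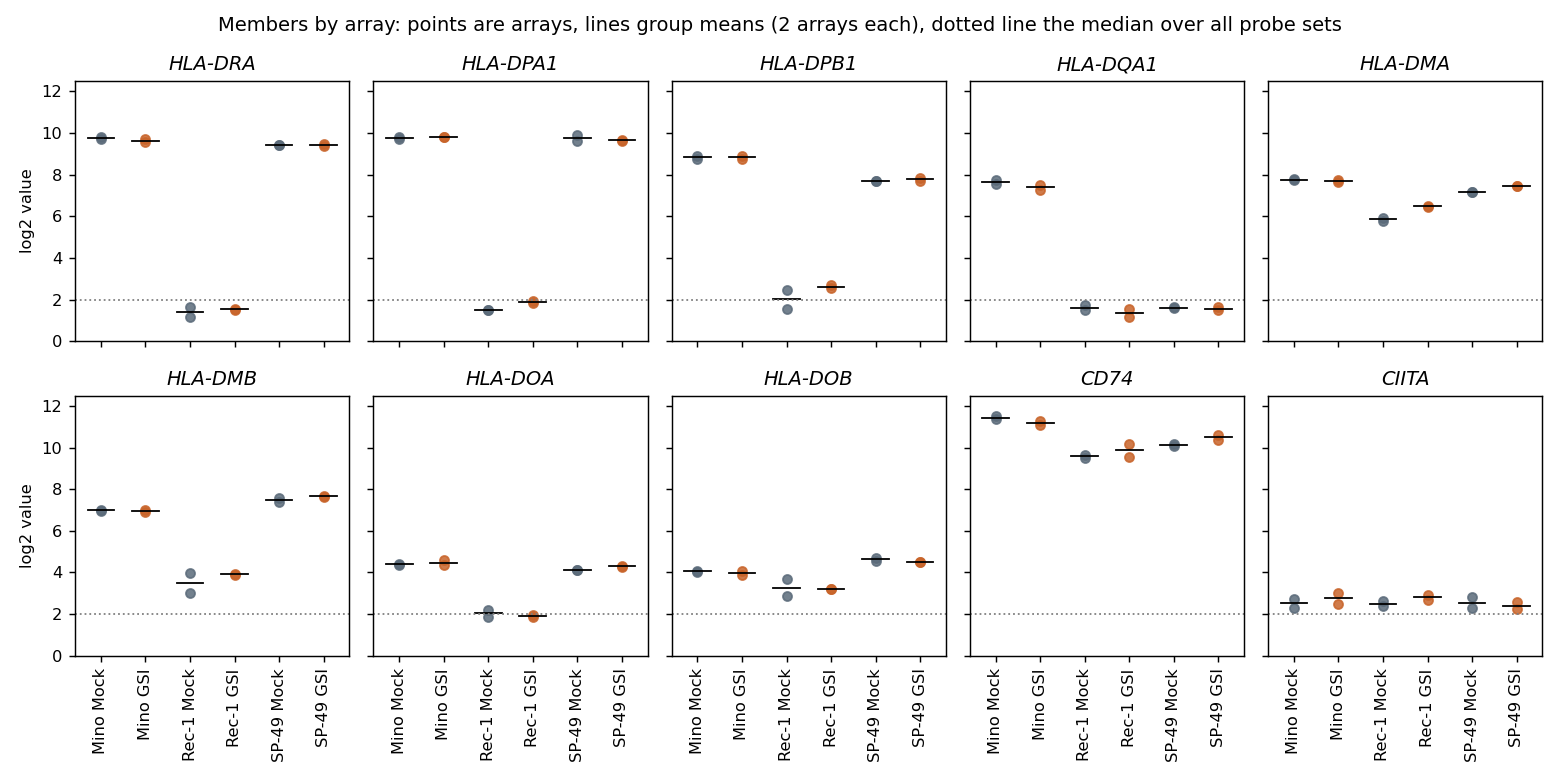
Log2 value (y axis) of each member's brightest probe set that names it alone on the 12 arrays, by line and treatment. Points are arrays, grey for Mock and orange for GSI, short lines are means of 2 arrays, and the dotted line is the median over all probe sets. HLA-DRA and HLA-DPA1 stand above 9 in Mino and SP-49 and under 2 in Rec-1, HLA-DQA1 is high in Mino alone, and CIITA lies between 2.24 and 3.02 on every array.

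HLA-DRA, the alpha chain shared by all DR molecules, read 9.73 and 9.82 on the 2 Mock arrays of Mino, 9.42 and 9.45 in SP-49, and 1.65 and 1.19 in Rec-1. Both Rec-1 arrays lay under the array median, and no array of the other lines came near them. The bound was at least 218-fold higher in Mino than in Rec-1 (log2 difference -8.36, SE 0.15, adjusted p = 2.5e-11) and at least 172-fold higher in SP-49 than in Rec-1. A further HLA-DRA probe set gave the same order, with Mock means of 9.46, 8.82 and 2.24 in Mino, SP-49 and Rec-1. SP-49 was lower than Mino by -0.34 (adjusted p = 0.145) on the first probe set, which did not pass, and by -0.64 on the second, which did (adjusted p = 0.0027 over all probe sets).

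HLA-DPA1, the alpha chain of DP, read 9.71 and 9.80 in Mino, 9.91 and 9.63 in SP-49, and 1.51 and 1.52 in Rec-1. Mino and SP-49 overlapped, with a difference of 0.02 (95% interval -0.27 to 0.30), and both stood at least 215-fold above Rec-1. Its partner HLA-DPB1 read 8.92 and 8.75 in Mino, 7.69 and 7.71 in SP-49, and 2.45 and 1.56 in Rec-1. The DP beta chain was therefore lower in SP-49 than in Mino (-1.13, SE 0.23, adjusted p = 0.0028) and lower again in Rec-1 (-6.83 against Mino, adjusted p = 2.6e-09). A weaker HLA-DPA1 probe set, 213537_at, ran the other way between the 2 high lines, at 3.97 in SP-49 and 2.67 in Mino (difference 1.30, adjusted p = 0.00034 over all probe sets), while 211991_s_at was lower in SP-49 (-0.89). The HLA-DPA1 probe sets thus agree on Rec-1 and disagree on SP-49 against Mino.

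HLA-DQA1, the alpha chain of DQ, was read by 3 probe sets that name it alone and by 1 that also names its close paralog HLA-DQA2. On 213831_at, the brightest of the 3, it read 7.58 and 7.74 in Mino, 1.48 and 1.74 in Rec-1, and 1.57 and 1.64 in SP-49. Mino stood at least 50.4-fold above Rec-1 and at least 51.5-fold above SP-49, and the latter 2 overlapped. The set 236203_at gave the same split, at 5.66 in Mino against 1.21 and 1.17, and 203290_at lay near the array median in all 3 lines. The shared set 212671_s_at read 9.68 and 9.42 in SP-49, above Mino at 7.42 and 7.35, and 1.50 and 2.01 in Rec-1. The readings are opposite for SP-49, with a difference from Mino of 2.17 on the shared set (adjusted p = 4.2e-06 over all probe sets) and of -6.05 on 213831_at (adjusted p = 6.2e-10 over all genes). HLA-DQA1 is polymorphic, and its level, the match of probes to the line's alleles and a contribution of HLA-DQA2 cannot be told apart on these arrays, whereas each of the 4 sets lay near or under the array median in Rec-1.

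Class II beta chains outside the 10 members were read on the same arrays. HLA-DRB1 averaged 9.56 in Mino, 9.09 in SP-49 and 4.21 in Rec-1 on the Mock arrays, on the set that names it alone. In Rec-1 that set lay above the array median. Of the sets naming HLA-DRB1 with other beta chains, 204670_x_at averaged 3.49 in Rec-1, 209312_x_at 2.27 and 215193_x_at 1.69. On 238900_at and 221491_x_at, both Rec-1 (1.15 and 1.18) and SP-49 (1.08 and 1.28) lay under the array median. HLA-DQB1, the partner of HLA-DQA1, averaged 8.25 in Mino, 3.58 in SP-49 and 2.70 in Rec-1 on its brightest set. HLA-DRB4, a second DR beta gene that only some haplotypes carry, read 7.08 on both Mock arrays of SP-49 on its brightest set. On that set it averaged 2.08 and 2.30 in Mino and Rec-1. Further sets that name HLA-DRB4 alone averaged 1.19 and 1.67 in SP-49, under the array median as in the other lines. The reading of HLA-DRB4 in SP-49 thus depended on the probe set. HLA-DQB2 lay under the array median in all 3 lines, and these chains share sequence that can cross-hybridise.

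**Figure D2:**
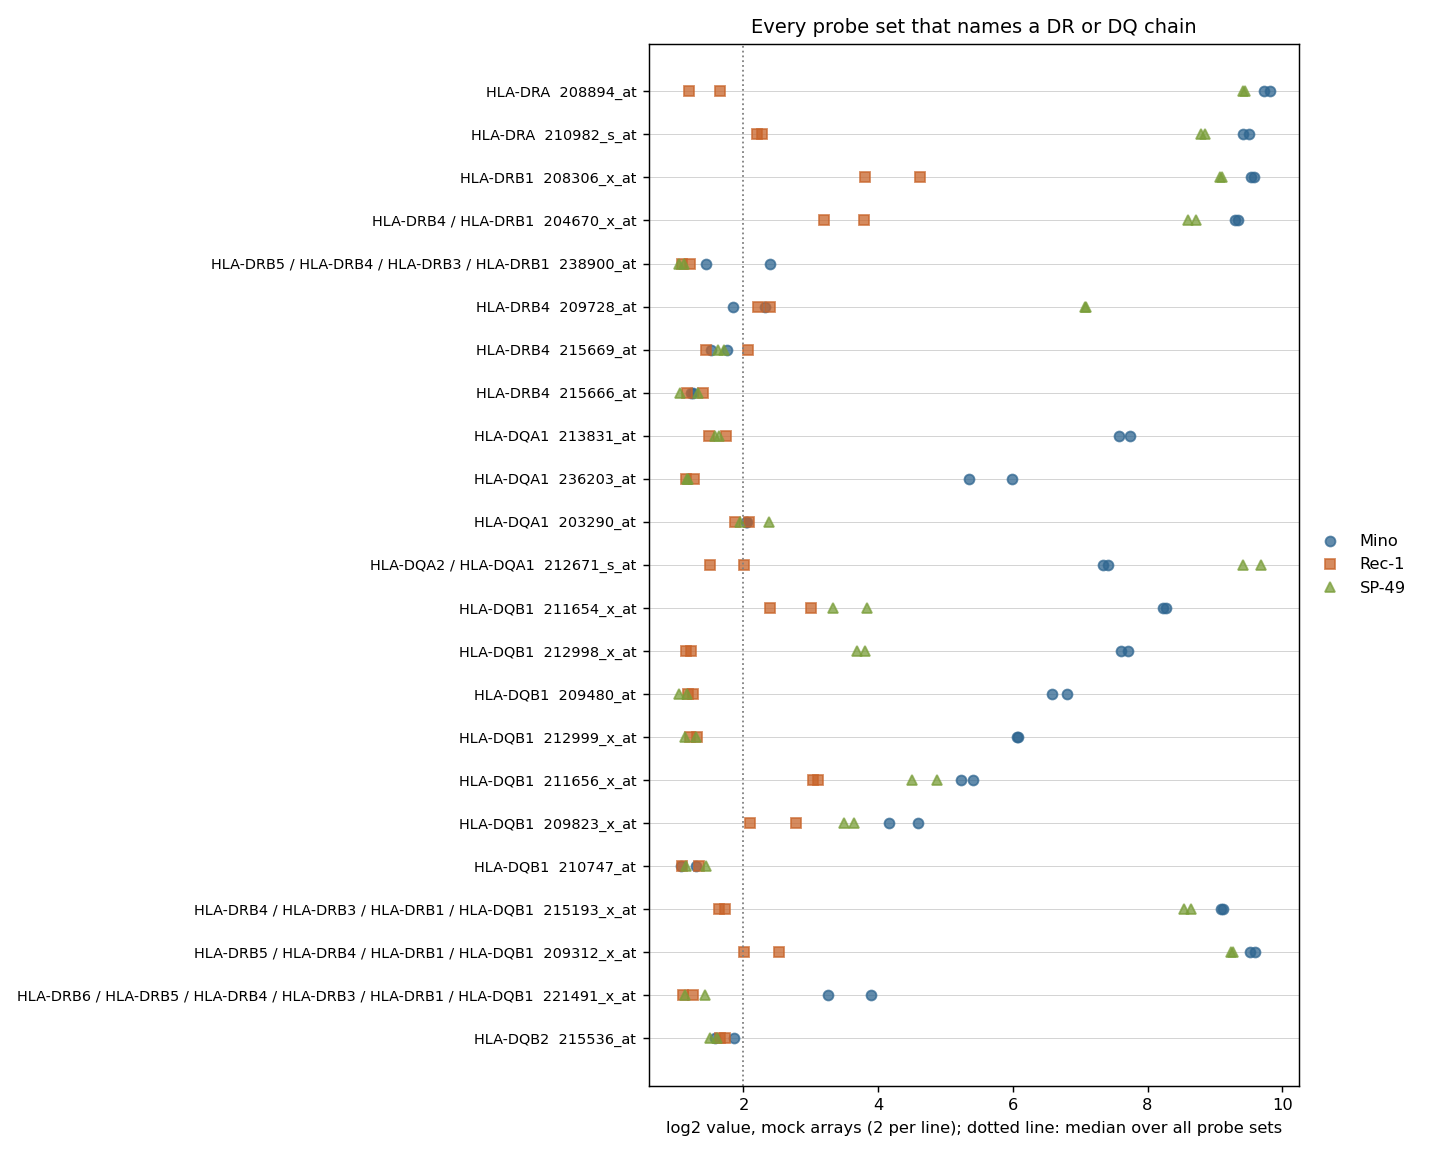
Log2 values (x axis) on the 2 Mock arrays of Mino (circles), Rec-1 (squares) and SP-49 (triangles) for every probe set that names a DR or DQ chain, with all genes it names. For HLA-DQA1, SP-49 lies with Rec-1 on 213831_at and above Mino on 212671_s_at, and HLA-DRB4 is bright in SP-49 alone on 209728_at.

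The loading factors were also lower in Rec-1, and HLA-DMA was still well above the floor there. HLA-DMB, the beta chain of the peptide editor HLA-DM, read 6.98 on both Mock arrays of Mino, 7.58 and 7.40 in SP-49, and 4.0 and 3.02 in Rec-1, a difference of -3.47 from Mino (SE 0.24, adjusted p = 8.0e-07), or 11.1-fold. HLA-DMA, the alpha chain, read 7.72 and 7.80 in Mino, 7.18 and 7.19 in SP-49, and 5.76 and 5.93 in Rec-1. The difference from Mino was -1.91 (SE 0.12, adjusted p = 3.6e-07), or 3.77-fold. SP-49 was also lower than Mino in HLA-DMA (-0.58, adjusted p = 0.0033), while HLA-DMB was 0.51 higher there and did not pass (adjusted p = 0.157).

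HLA-DOA and HLA-DOB form the HLA-DM modulator of B cells. HLA-DOA read 4.38 and 4.42 in Mino, 4.11 and 4.13 in SP-49, and 1.85 and 2.22 in Rec-1 (-2.37 against Mino, adjusted p = 3.8e-07), so that Rec-1 lay at the floor. HLA-DOB read 4.09 and 4.04 in Mino, 4.68 and 4.57 in SP-49, and 3.68 and 2.86 in Rec-1, with both Rec-1 arrays below the others. Its difference from Mino, -0.80 (SE 0.21, adjusted p = 0.0146), was the smallest of the 9 called, and it was not called without Rec-1 Mock 2 (-0.38, adjusted p = 0.12) nor without either Mino Mock array (adjusted p = 0.0741 and 0.0594). The HLA-DOB call was also lost with its probe sets averaged (-0.45, adjusted p = 0.063) and with only the arrays compared (adjusted p = 0.0613), and the difference was -1.21 without Rec-1 Mock 1. Against SP-49 the HLA-DOB difference was -1.36 (adjusted p = 0.00039).

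CD74, the invariant chain and the cytokine MIF's receptor, was bright in every line. It read 11.4 and 11.5 on the Mock arrays of Mino, 9.51 and 9.64 in Rec-1, and 10.2 and 10.1 in SP-49. Both other lines were below Mino, by -1.85 in Rec-1 (SE 0.19, adjusted p = 2.1e-05) and -1.30 in SP-49 (adjusted p = 0.00031). The arrays of Rec-1 lay below those of SP-49 with a difference of -0.55 that narrowly missed the threshold (adjusted p = 0.0504) and passed under 10 of the 22 alternatives run. In Rec-1 a bright invariant chain thus stood beside HLA-DRA, HLA-DPA1, HLA-DPB1 and HLA-DQA1 at the floor.

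CIITA did not separate the lines. Its brightest probe set read 2.75 and 2.30 on the Mock arrays of Mino, 2.37 and 2.61 in Rec-1, and 2.80 and 2.30 in SP-49, and the lines overlapped. The Rec-1 minus Mino difference was -0.04 (95% interval -0.55 to 0.48, adjusted p = 0.952). All 3 CIITA probe sets stayed between 1.77 and 3.02 over the 12 arrays, also in Mino, where the class II chains were bright. Whether these probe sets register CIITA at all at such levels was not tested.

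**Figure D3:**
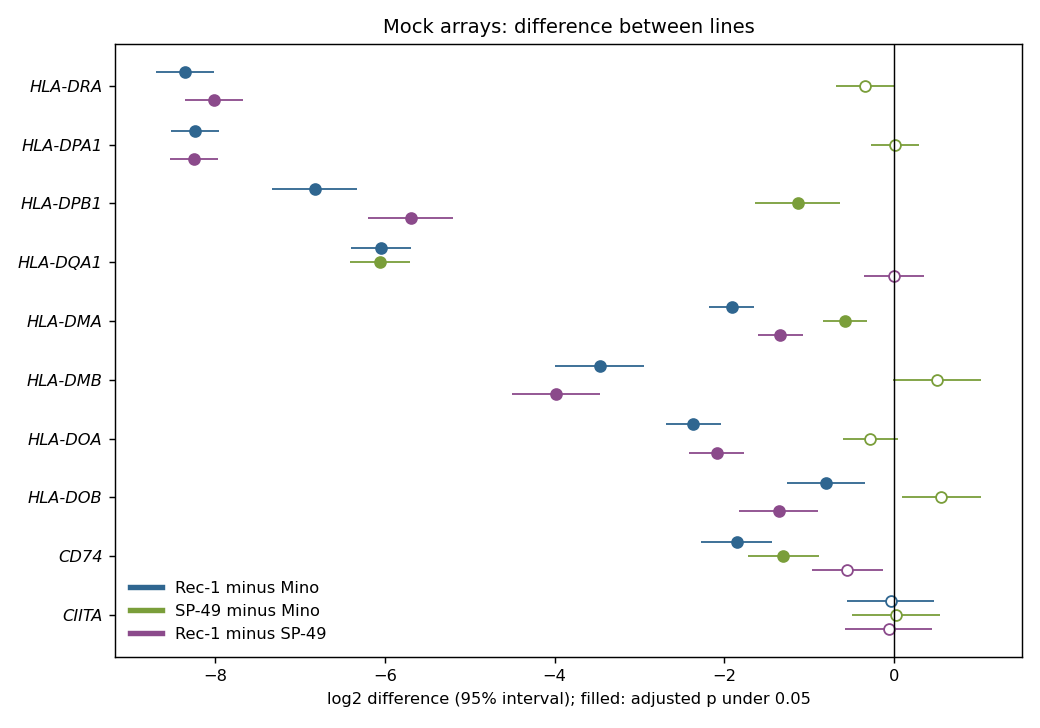
Log2 difference between Mock-treated lines (x axis) for each member, with its 95% interval from the fit over 12 arrays. Filled circles passed an adjusted p of 0.05. The DR and DP chains lie between -5.70 and -8.36 in both comparisons with Rec-1, the loading factors and CD74 nearer 0, and CIITA at 0.

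Counted by probe set, 15 of the 26 were lower in Rec-1 than in Mino, 11 were lower in Rec-1 than in SP-49, and 7 were lower and 2 higher in SP-49 than in Mino. Over all 54675 probe sets, 16.8%, 19.2% and 17% were called in either direction in these comparisons. Of the 26, 11 were dim, under the upper quartile of all values on each array, among them all 3 for CIITA, 4 of the 5 for HLA-DOA and 1 each for HLA-DOB, HLA-DPB1, HLA-DQA1 and CD74. Averaging a gene's sets, dim ones included, left the Rec-1 minus Mino difference at -0.41 for HLA-DOA, -0.94 for CD74, -3.49 for HLA-DPB1, -3.53 for HLA-DQA1 and -5.32 for HLA-DPA1, all still called. On the same averages, HLA-DOA was -0.40, HLA-DPB1 -2.81, HLA-DPA1 -5.47 and HLA-DOB -0.77 for Rec-1 minus SP-49, and CD74 -0.71, HLA-DPB1 -0.68 and HLA-DQA1 -3.48 for SP-49 minus Mino, again all called.

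The factors on which CIITA docks were measured in all 3 lines. RFX5, RFXANK and RFXAP form the X-box-binding RFX complex, and NFYA, NFYB and NFYC the Y-box-binding NF-Y. RFX5 averaged 7.13 in Mino, 6.96 in Rec-1 and 6.66 in SP-49, and RFXANK 6.53, 7.03 and 6.48. RFXAP was lower than in Mino both in Rec-1 (4.20 against 5.73, adjusted p = 0.00025) and in SP-49 (4.26, adjusted p = 0.00034). The 3 genes whose printed promoters held an X-like match followed by a Y-box core were HLA-DQA1, HLA-DMA and HLA-DOA. They differed between Rec-1 and Mino by -6.05, -1.91 and -2.37. The other members with a window, HLA-DPA1, HLA-DPB1, HLA-DMB, CD74 and HLA-DOB, differed by -8.24, -6.83, -3.47, -1.85 and -0.80. A link between the motifs and these differences was not tested. NFYA, NFYB and NFYC were higher in Rec-1 than in Mino, by 0.76, 0.52 and 0.63. CREB1, which binds the same promoters and was singled out after its values were seen, read 6.25 and 6.16 in Rec-1, 7.12 and 7.15 in Mino, and 7.42 and 7.39 in SP-49, lower in Rec-1 than in Mino (-0.93, adjusted p = 9.5e-05) and than in SP-49 (-1.20, adjusted p = 1.0e-05). It was the only one of the 7 measured docking factors called lower in Rec-1 against both lines. Against Mino, 4 of the 7 were called higher (RFXANK, NFYA, NFYB and NFYC) and 2 lower. Over all 19775 genes, 2529 were called higher and 2636 lower in that comparison. Against SP-49, 1 of the 7 was called higher and 1 lower, beside 2595 and 3119 of all genes. Of 14 measured regulators of CIITA transcription, 6 were higher and 1 lower in Rec-1 than in Mino, where 2529 of all 19775 genes were called higher. Against SP-49 the direction was opposite, with none of the 14 higher and 8 lower in Rec-1, beside 3119 of all genes called lower. PRDM1, a repressor of CIITA in plasma cells that was singled out after its values were seen, averaged 3.07 in Rec-1, 3.10 in Mino and 3.72 in SP-49. The part of these factors and regulators in the class II levels was not tested.

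The 8 members on chromosome 6 span the class II region, and 8 other measured protein-coding genes lie between the outermost of them in the RefSeq annotation. These 8 were looked at after the member values were known. In Rec-1 against Mino, 5 of the 8 were lower, where 13.3% of all genes were called lower. These 5 were the chains HLA-DRB1 (-5.35) and HLA-DQB1 (-5.55) and the peptide-supply genes PSMB8 (-1.61), TAP1 (-0.995) and PSMB9 (-0.78), which serve class I. BRD2, a chromatin reader encoded between HLA-DMA and HLA-DOA, was 0.36 higher and did not pass (adjusted p = 0.0645), and TAP2 differed by -0.11. In SP-49, PSMB8, TAP1 and PSMB9 were instead higher than in Mino, by 0.90, 0.74 and 0.71. The low values of Rec-1 were therefore not shared by every gene of the region.

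**Figure D4:**
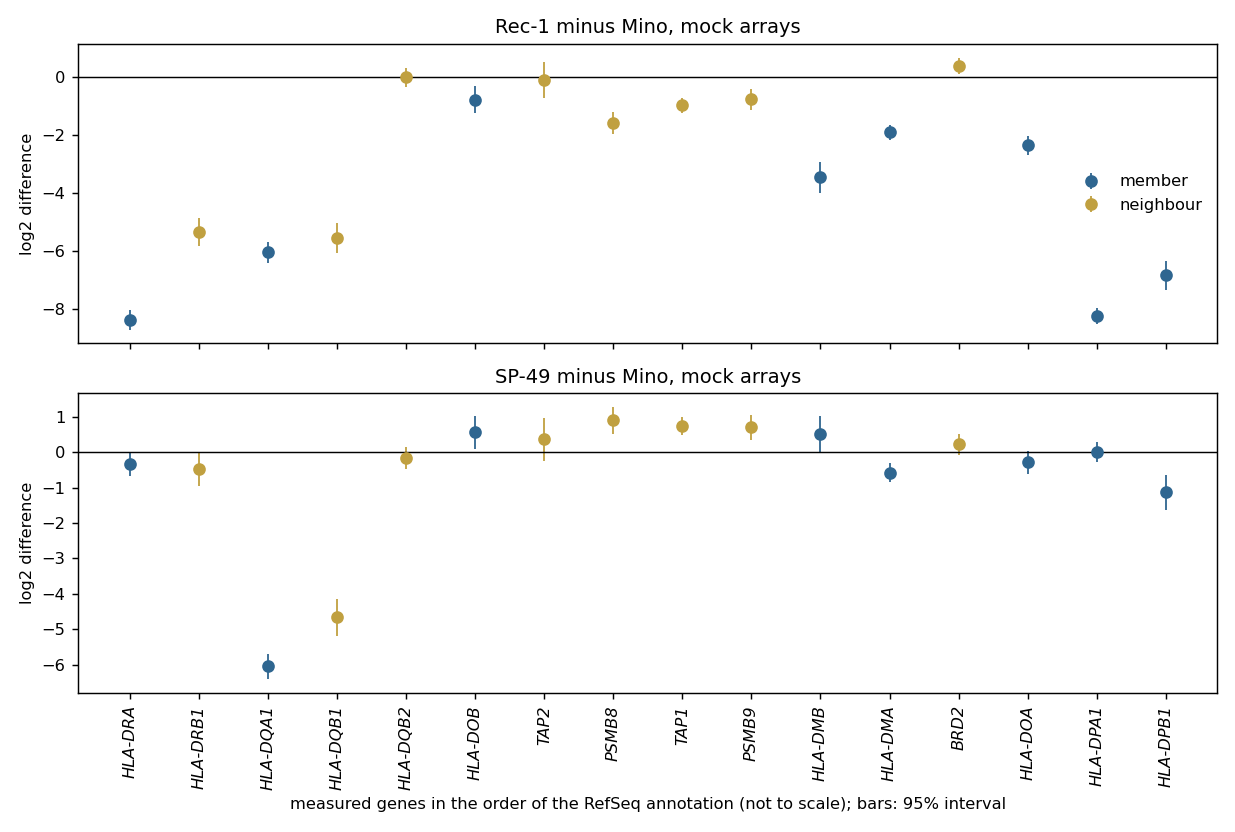
Log2 difference from Mino (y axis) in Mock-treated Rec-1 (top) and SP-49 (bottom) for the measured genes of the class II region, in RefSeq order and not to scale. Bars are 95% intervals, blue marks members and ochre their neighbours. In Rec-1, BRD2 and TAP2 lie near 0 between members that are 0.80 to 8.36 lower.

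Other genes shared the class II pattern. Over the 12 arrays, the genes most like the mean of HLA-DRA, HLA-DPA1, HLA-DPB1, HLA-DMA, HLA-DMB and CD74 were PLCG1 (Pearson r = 0.9985), TCL1A (0.9977), SERPINF1 (0.9955), GSTO1 (0.9955) and SUPT20H (0.9945), among 5506 genes compared. TCL1A, a coactivator of the kinase AKT in B cells, averaged 11.9 in Mino, 11.2 in SP-49 and 2.59 in Rec-1 on the Mock arrays. The 12 arrays come from 3 lines, so these values rest on Rec-1 standing apart. For CIITA the closest were ATG10 (0.713), ZMYM1 (0.630), POLR3D (0.626), RAB24 (0.620) and GALC (0.614), a likeness over values near the floor.

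The second question was whether the inhibitor moved these genes. In Rec-1, 1 of the 10 members passed, HLA-DMA, which rose, where 5.77% of all genes were called and 2.15% were called higher. In Mino none of the 10 was called, where 0% of all genes were, and in SP-49 none was, where 0.192% were. At an unadjusted p under 0.05 in limma, the members numbered 0 in Mino, 3 in Rec-1 and 1 in SP-49, and all genes 969, 3794 and 1754. The median change over the members was -0.04 in Mino, 0.31 in Rec-1 and 0.04 in SP-49, beside 0.00, 0.01 and -0.02 over all genes. With every probe set tested, the only 1 of the 26 called was that of HLA-DMA in Rec-1, where 3.13% of all probe sets were called, against 0% in Mino and 0.0494% in SP-49.

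HLA-DMA in Rec-1 read 5.76 and 5.93 on the Mock arrays and 6.46 and 6.50 with the inhibitor, a rise of 0.63 (SE 0.12, 95% interval 0.37 to 0.89, adjusted p = 0.0105), or 1.55-fold. Both inhibitor arrays lay above both Mock arrays, and still below every array of Mino and SP-49. In SP-49 it read 7.18 and 7.19 against 7.48 and 7.47, also without overlap, a change of 0.29 that did not pass (95% interval 0.03 to 0.55, adjusted p = 0.5). In Mino it read 7.72 and 7.80 against 7.64 and 7.75, which overlap (-0.06, 95% interval -0.33 to 0.20). The call in Rec-1 was lost without Rec-1 Mock 1 (0.54, adjusted p = 0.103), with the fit on the Rec-1 arrays alone (adjusted p = 0.154), and when the second inhibitor arrays of Rec-1 and SP-49 were left out (0.61, adjusted p = 0.0556).

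Other values moved with that rise. Of the 8 neighbours in the class II region, 2 rose with the inhibitor in Rec-1 and none fell, where 2.15% of all genes were called higher. They were the class I genes TAP1 (0.55, adjusted p = 0.0203) and PSMB9 (0.61, adjusted p = 0.0488), in limma. The GAPDH 3′ minus 5′ difference, a measure of RNA integrity, was 0.593 and 0.488 on the Rec-1 inhibitor arrays and 0.413 and 0.367 on the Mock arrays, whereas that of ACTB overlapped (2.285 and 1.918 against 1.999 and 1.825). The 7 B-cell markers averaged 7.88 and 7.83 with the inhibitor and 7.58 and 7.62 without it in Rec-1. Of the 7, 3 rose, CD79B by 1.06, CD72 by 0.73 and MS4A1 by 0.51, where 2.15% of all genes were called higher. Of the 4 that did not pass, CD79A had a change of 0.47, and PAX5 (-0.41), BLK (-0.34) and CD22 (-0.26) had inhibitor values below the Mock values without overlap (adjusted p = 0.101 for CD79A, 0.102, 0.206 and 0.406). The 9 myeloid and dendritic-cell markers averaged 1.66 and 1.67 against 1.56 and 1.61, under the array median throughout. The part of these in the HLA-DMA result was not tested.

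The other members in Rec-1 stayed short of the threshold. HLA-DPB1 read 2.69 and 2.56 with the inhibitor against 2.45 and 1.56 (change 0.62, 95% interval 0.12 to 1.12, adjusted p = 0.157), and HLA-DPA1 1.82 and 1.93 against 1.51 and 1.52 (0.36, adjusted p = 0.145). In both, the inhibitor arrays lay above the Mock arrays, within 1 unit of the floor. HLA-DMB (0.40), CIITA (0.32), CD74 (0.30) and HLA-DRA (0.12) had positive changes, and HLA-DOB (-0.06), HLA-DOA (-0.13) and HLA-DQA1 (-0.25) negative ones. Without Rec-1 Mock 1, HLA-DPB1 (1.07, adjusted p = 0.0113) and HLA-DMB (0.88, adjusted p = 0.0197) were called, and without Rec-1 GSI 1, CD74 was (0.62, adjusted p = 0.0401). The upper bound of the interval for HLA-DRA was 0.45, beside a gap of at least 7.77 between Mock-treated Rec-1 and Mino. The CIITA probe set 211884_s_at had a change of 0.49 in Rec-1 that did not pass over all probe sets (adjusted p = 0.132).

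In SP-49 and Mino the largest changes were those of CD74 and HLA-DQA1. CD74 in SP-49 read 10.4 and 10.6 with the inhibitor against 10.2 and 10.1 (0.37, 95% interval -0.05 to 0.79, adjusted p = 0.646). In Mino it read 11.3 and 11.1 against 11.4 and 11.5 (-0.24, adjusted p = 0.9998), so that the inhibitor arrays lay above in one line and below in the other. HLA-DQA1 in Mino read 7.49 and 7.28 against 7.58 and 7.74 (-0.27, 95% interval -0.63 to 0.08). The HLA-DRA changes were -0.15 in Mino and -0.01 in SP-49, with intervals of -0.49 to 0.19 and -0.34 to 0.33. CIITA changed by 0.23 in Mino and by -0.15 in SP-49, and its arrays overlapped in both. The weaker HLA-DPA1 probe set 213537_at, at 4.12 and 3.82 on the Mock arrays of SP-49, read 3.29 and 2.98 with the inhibitor, without overlap (-0.84, adjusted p = 0.179 over all probe sets), while the bright HLA-DPA1 set changed by -0.12.

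**Figure D5:**
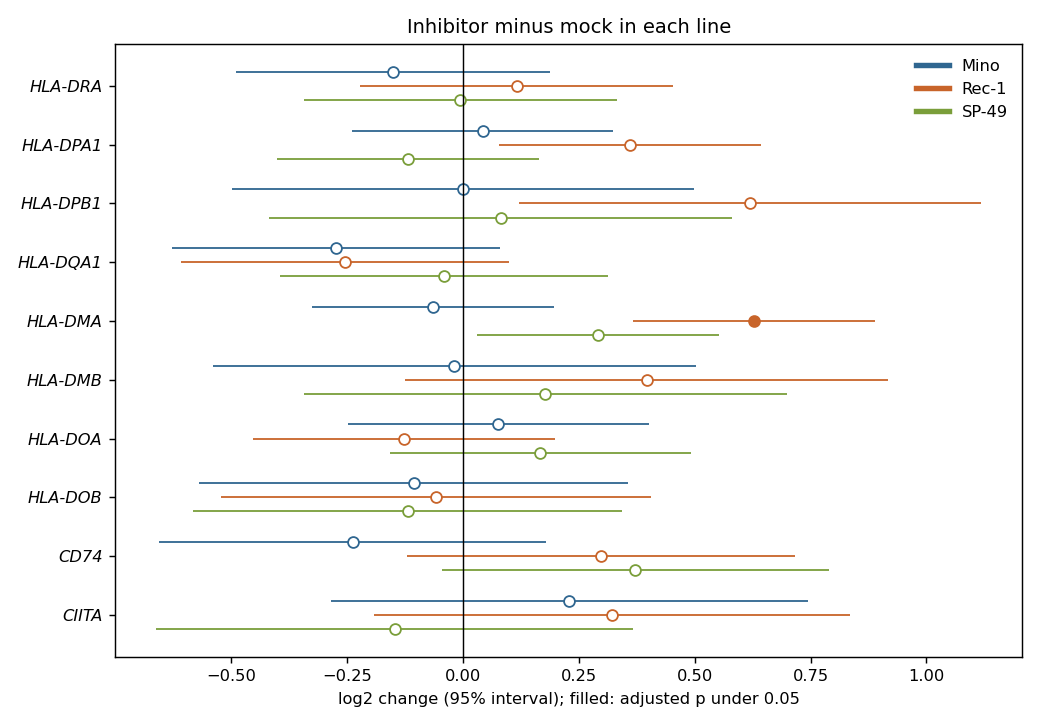
Log2 change with the inhibitor (x axis, inhibitor minus Mock) for each member in Mino, Rec-1 and SP-49, with 95% intervals from the fit over 12 arrays. The single filled circle, HLA-DMA in Rec-1 at 0.63, passed an adjusted p of 0.05, and the intervals of all other members except HLA-DPA1 and HLA-DPB1 in Rec-1 and HLA-DMA in SP-49 include 0.

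The lines were also compared in their response itself. None of the 10 members was called for Rec-1 minus Mino, SP-49 minus Mino or Rec-1 minus SP-49, where 1.43%, 0.0455% and 0.556% of all genes were. One member had an unadjusted p under 0.05 in each of these comparisons, and among all genes 2798, 1417 and 2170 had. For HLA-DMA the response was 0.69 larger in Rec-1 than in Mino (95% interval 0.32 to 1.06, adjusted p = 0.0752), 0.36 larger in SP-49 than in Mino (-0.01 to 0.72, adjusted p = 0.704) and 0.34 larger in Rec-1 than in SP-49 (-0.03 to 0.71, adjusted p = 0.508). These tests do not show that the response of HLA-DMA differed between lines. Comparisons of lines share the arrays of Mino or of SP-49.

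Around the class II molecule, several genes of the pathway did move in Rec-1. Of 10 endosomal proteases and related factors, 2 rose and 2 fell, where 2.15% of all genes were called higher and 3.62% lower. Cathepsin H (CTSH) rose by 0.94 (adjusted p = 0.0024) and the cathepsin inhibitor CST3 by 0.87 (adjusted p = 0.0076), whereas CTSC fell by 0.53 (adjusted p = 0.04) and the asparaginyl endopeptidase LGMN fell by 0.65 (adjusted p = 0.0348). LGMN also fell in SP-49, by 0.93 (adjusted p = 0.049), and read 2.31 to 2.33 on average in Mino with and without the inhibitor.

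Of 13 trafficking and turnover genes, 3 rose in Rec-1 and none fell, where 2.15% of all genes were called higher and 3.62% lower. MARCHF1, the ubiquitin ligase that removes class II from the B-cell surface, read 2.01 and 1.79 on the Mock arrays and 4.33 and 3.15 with the inhibitor, a rise of 1.84 (SE 0.29, adjusted p = 0.0043). The inhibitor arrays differ from each other by more than the Mock arrays do, and both lie above them. CD83, which counters MARCHF1, rose by 0.50 (adjusted p = 0.0264) and the tetraspanin CD37 by 0.69 (adjusted p = 0.0261).

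Among 7 class II transcription factors, NFYA fell in Rec-1 by 0.77 (adjusted p = 0.0382), and RFX5, RFXANK, RFXAP, NFYB and NFYC were not called in any line. None of the 14 regulators of CIITA and none of 11 costimulatory and partner receptors was called in any line. Of 9 genes listed for the interferon gamma pathway, IRF9 rose in Rec-1 by 1.24 (adjusted p = 0.00042) and IFNGR1 fell in SP-49 by 1.05 (adjusted p = 0.0333). Beside these list counts, 5.77% of all genes were called in Rec-1 and 0.192% in SP-49. In Mino no gene of these lists passed, where 0% of all genes did. The 4 further class II chains, HLA-DRB1, HLA-DRB4, HLA-DQB1 and HLA-DQB2, were not called in any line on their own brightest probe set. A set that names HLA-DRB1, HLA-DRB3, HLA-DRB4 and HLA-DQB1 together, 215193_x_at, was called in Rec-1, at 2.39 and 2.32 with the inhibitor against 1.64 and 1.73 (0.67, adjusted p = 0.0096 over all probe sets), close to the floor and far below its Mock mean of 9.10 in Mino. One T-cell marker, CD3D, fell in Rec-1 by 0.63 (adjusted p = 0.0253).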

How the data were processed

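Total RNA of 12 samples was measured on Affymetrix arrays. The authors deposited log2 values, and RMA and limma are named, without versions, per the submitters' processing notes; no build or background correction is given there. Of 54675 probe sets, 41097 name 1 gene, 1801 several and 11777 none in the platform annotation, updated through RefSeq. Each of 19775 genes was read by its brightest probe set naming it alone. The means of the 6 groups were fitted to all 12 arrays with limma 3.58.1 in R 4.3.3 (lmFit, eBayes), with Benjamini-Hochberg adjustment per comparison, two-sided, threshold 0.05, and 95% intervals. Residual degrees of freedom were 6 and the median SE of a change in 1 line was 0.16; the number of arrays limits the precision. The fit was tested on simulated data. Named are all members, the other class II chains, RFX and NF-Y subunits, at most 4 inhibitor-called genes per list, and the 5 most similar genes per pattern. The members and lists were chosen with earlier results of these data known. Alternatives changed probe set choice, filter, scaling, prior, arrays and blocking. Listed genes that could not be matched were not analysed here.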

Additional observations from a re-analysis of the deposited data

Results flagged for a closer look

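The CD74 arrays with the inhibitor lay on opposite sides of the Mock arrays in SP-49 and Mino. Both were above both Mock arrays in SP-49 (0.37) and below them in Mino (-0.24). Neither change passed in limma (adjusted p = 0.646 and 0.9998). All members and pairs of lines were searched for such a contrast, and its share over all genes was not counted. With 2 arrays a group it can arise by chance. The difference of 0.61 (95% interval 0.02 to 1.20) was tested in limma and did not pass (adjusted p = 0.683).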

How the results depend on the processing

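With 2 arrays a group, each comparison was repeated under 22 alternatives. No called change of a member reversed direction, but averaging probe sets shrank line differences of members with dim sets by over 1.5 times. For the inhibitor in Rec-1 the count of members called was 1, and it was 2 with an intensity trend and robust prior (HLA-DMA and HLA-DPB1), 0 with only the Rec-1 arrays, 0 without the second inhibitor arrays of Rec-1 and SP-49, and 1 to 2 with an array left out. For the response in Rec-1 minus that in Mino it was 0, and it was 1 (HLA-DMA) with probe sets averaged per gene and 1 (HLA-DMA) with the trend and robust prior, and 0 to 1 with an array left out (CD74 without Rec-1 GSI 1). Counts of the other comparisons stayed within 1.5 times: 8 to 9 members for Rec-1 minus Mino, 4 to 6 for SP-49 minus Mino (4 lower throughout, joined by HLA-DRA lower with probe sets averaged and, at 6, by HLA-DMB and HLA-DOB higher) and 7 to 8 for Rec-1 minus SP-49. Same-numbered arrays did not deviate together over all genes (r = 0.05, 0.09 and -0.01 in Mino, Rec-1 and SP-49). This cannot show whether same-numbered arrays came from the same culture, which the labels do not say. With the replicate block, 1 member was called for the inhibitor in Rec-1 and 8 for Rec-1 minus SP-49, CD74 joining at adjusted p = 0.0453. Another scaling moved the median of all genes by less than 0.1. Probe sets near the array median, CIITA's among them, cannot show a loss.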
